A study of Homo sapiens with 4 samples.

Results

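RNA sequencing in A549 cells, a human lung adenocarcinoma line, measured the transcripts of 10 Kruppel-like factor genes with and without glutamine. The 10 genes, KLF2, KLF3, KLF4, KLF5, KLF6, KLF7, KLF9, KLF10, KLF11 and KLF13, are named members of the family, picked with earlier results of these data known, and each had a single entry among the 58560 genes to which the transcript files could be summed. The 4 libraries were 2 of control cells, labelled as untreated, and 2 of cells kept in glutamine-free DMEM with serum. The deprived cells were washed with PBS before the change of medium, a step the labels do not give for the controls, so the loss of glutamine cannot be told apart from the wash and the new medium. Deprivation lasted 24 hours by the protocol, although the label of the second deprived library reads 25 hours. All cells are 1 established line, and nothing says that replicates came from separate cultures, so the p-values measure only the spread between these libraries, which may be technical.

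Kruppel-like factors are transcription factors with a C-terminal DNA-binding domain of zinc fingers that reads GC-rich and CACCC sequences. The domain is much alike across the family, whereas the N-terminal parts differ and set the partners: KLF2, KLF4, KLF5, KLF6 and KLF7 mostly activate through acetyltransferases, KLF3 (with KLF8 and KLF12) recruits the corepressor CtBP, and KLF9, KLF10, KLF11 and KLF13 (with KLF14 and KLF16) recruit SIN3A. In epithelia, KLF4 is known for cell cycle exit and differentiation and KLF5 for proliferation, and several members are induced within minutes to hours by serum, growth factors or stress.

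Library totals ran from 101496318 to 123414592 estimated counts. The keratin genes KRT8 and KRT18 of simple epithelia were present at 714 to 5235 CPM (counts relative to the library total, scaled with edgeR's TMM factors), the epithelial adhesion gene EPCAM at 0.498 to 2.70 CPM only, and 5 of 6 epithelial markers were called lower in deprived cells while KRT7 was called higher. For comparison, 24.4% of all genes and 29.8% of protein-coding genes were called lower. The 6 endothelial markers, a cell type known for KLF2 and KLF4, summed to 0.899 to 0.989 CPM in the control and 0.211 to 0.212 CPM in the deprived libraries, with KDR at 0 in both controls and PECAM1 at 0 in both deprived libraries. Blood cell markers summed to 14.0 CPM in control replicate 1, of which HBB made up 11.6 CPM, and to 0.940 to 1.98 CPM in the other 3 libraries. The part of the epithelial and endothelial markers in the results was not tested. Leaving out control replicate 1, the library with the high HBB value, changed the call of none of the 10 genes.

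Of the 10 genes, 7 rose and 1 fell in deprived cells, and KLF2 and KLF5 were not called (edgeR quasi-likelihood test, Benjamini-Hochberg adjusted p under 0.05 over 24527 genes). In the same test 49.6% of all genes were called, 25.2% higher and 24.4% lower, and of protein-coding genes 34.3% were called higher and 29.8% lower. At least 2-fold increases were called for 6 of the 10, against 12.4% of all genes and 15.1% of protein-coding genes. Of the 6, KLF3 lay at this limit (2.01-fold). Its log2 fold change ran from 0.67 to 1.04 across the alternative settings, where 2-fold is 1. Both deprived libraries lay above both controls for 9 of the 10 genes and for 36.1% of all genes, and below them for KLF13 and 40.5% of all genes, or 76.5% without overlap in either direction. The median log2 fold change (deprived over control) of the 10 was 1.31, beside -0.06 for all genes tested and 0.01 for protein-coding genes. Scaling matters for the level against which these changes are read. With library size in place of TMM the median of all genes moved to -0.40 and the calls over all genes from 6174 higher and 5982 lower to 4179 and 8565, while the median of the 10 was 0.98.

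Promoter sequences are shown for KLF4, among the genes that rose most, for KLF9, which rose and has an unlike, AT-rich window, for KLF13, the gene that fell, and for KLF2, which holds a site for MEF2, a factor known to drive it. They are the 250 bases before the gene start in RefSeq (GRCh38.p14), read 5′ to 3′ on the gene's strand, at chr19:16324576-16324825 (plus strand), chr9:107489770-107490019 (minus), chr9:70414658-70414907 (minus) and chr15:31326585-31326834 (plus) in the order KLF2, KLF4, KLF9, KLF13. Capitals mark GC boxes with the letters GGGCGG, boxes of the CACCC type, searched as CCACCC, and the MEF2 box, each on either strand and with overlaps allowed.
KLF2: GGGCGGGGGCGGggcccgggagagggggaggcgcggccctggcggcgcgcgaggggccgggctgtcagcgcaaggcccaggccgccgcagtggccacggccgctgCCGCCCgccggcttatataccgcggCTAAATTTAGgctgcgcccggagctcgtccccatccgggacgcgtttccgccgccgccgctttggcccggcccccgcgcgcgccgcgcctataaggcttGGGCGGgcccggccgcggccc
KLF4: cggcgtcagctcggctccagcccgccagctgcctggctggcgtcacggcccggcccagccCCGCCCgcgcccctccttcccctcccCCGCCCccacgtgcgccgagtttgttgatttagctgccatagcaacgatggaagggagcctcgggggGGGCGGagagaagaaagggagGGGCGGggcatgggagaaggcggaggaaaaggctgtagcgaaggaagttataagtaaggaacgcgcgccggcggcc
KLF9: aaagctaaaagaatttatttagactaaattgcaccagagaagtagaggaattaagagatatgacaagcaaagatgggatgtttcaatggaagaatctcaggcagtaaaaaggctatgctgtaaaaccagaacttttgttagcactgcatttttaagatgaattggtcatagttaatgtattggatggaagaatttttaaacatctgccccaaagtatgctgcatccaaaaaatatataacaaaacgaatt
KLF13: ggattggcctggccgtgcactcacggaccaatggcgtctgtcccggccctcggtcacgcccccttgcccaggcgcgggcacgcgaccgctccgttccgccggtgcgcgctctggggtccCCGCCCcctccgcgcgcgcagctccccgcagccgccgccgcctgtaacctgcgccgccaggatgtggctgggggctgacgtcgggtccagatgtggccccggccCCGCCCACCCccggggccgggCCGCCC

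GC boxes, which SP and Kruppel-like factors can bind, were found in 6 of the 8 genes with a promoter window in the table (KLF2, KLF4, KLF5, KLF6, KLF11 and KLF13), against 42.6% of all 35116 windows of that length. These 6 windows had 69.2% to 80.0% G and C, against 57.2% on average over all windows, so the share is not matched for composition. KLF7 and KLF13 held CACCC boxes, a motif of 31.3% of windows. The KLF2 window alone held a MEF2 box, 120 bases before the start, which occurs in 0.515% of windows. None of the 8 held a cyclic AMP response element (TGACGTCA, 1.65% of windows), an AP-1 site (TGANTCA, 6.57%), an amino acid response element (TGATGNAAN, 3.13%), a CArG box (1.16%) or a TATA box (TATAAA, 10.7%), which says only that these letters are not in these windows. The KLF9 window matched none of the motifs and had 32.4% G and C. Where a gene had several windows, the one nearest the start of its most abundant transcript was used; the main transcripts of KLF2, KLF5 and KLF6 start inside their windows and that of KLF11 upstream of it. KLF3 and KLF10 are named only.

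**Figure D1:**
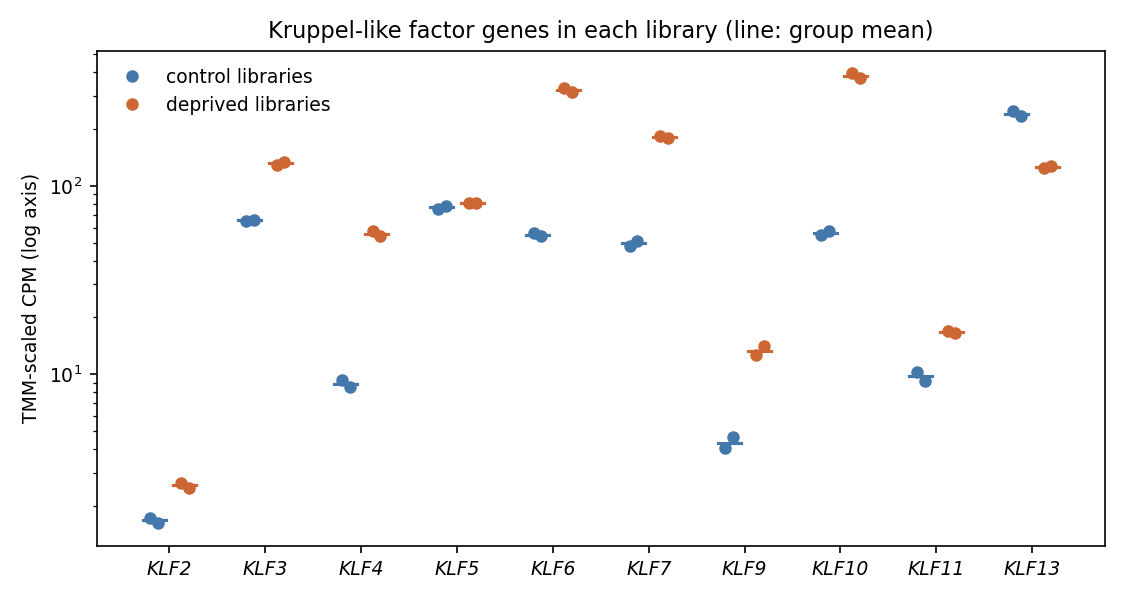
TMM-scaled CPM of each of the 10 genes (log axis) in the 2 control (blue) and 2 deprived (orange) libraries, with a line at each group mean. KLF4, KLF6, KLF7 and KLF10 stand far above their controls, KLF13 stands below, and the 4 points of KLF5 lie close together between 75.3 and 80.9 CPM.

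Of the 5 members that mostly activate, KLF4, KLF6 and KLF7 rose, whereas KLF2 and KLF5 were not called. KLF6 (chromosome 10, 3775996 to 3785281), a growth-restraining factor known to activate CDKN1A, was at 56.1 and 54.03 CPM in the control libraries and at 331 and 315 CPM in the deprived libraries. Both deprived libraries lay far above both controls, a 5.87-fold rise (log2 fold change 2.55 ± 0.08 SE, adjusted p = 1.22e-05). KLF4 (chromosome 9, 107484852 to 107490482), which promotes epithelial differentiation and is one of the reprogramming factors, was at 9.32 and 8.51 CPM in controls and at 57.3 and 54.2 CPM in deprived cells. Both deprived libraries lay above both controls, and the level was 6.25-fold higher (2.64 ± 0.09, adjusted p = 1.47e-05). KLF7 (chromosome 2, 207074137 to 207167267), best known from neurons, was at 47.9 and 50.98 CPM in controls and at 183 and 180 CPM in deprived cells. The groups did not overlap and the rise was 3.67-fold (1.88 ± 0.07, adjusted p = 1.80e-05).

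KLF2 (chromosome 19, 16324817 to 16327874), the flow-responsive factor of endothelium that is also kept by resting lymphocytes, was the least abundant of the 10 by CPM. It had 197 and 178 counts in controls and 276 and 271 in deprived cells, or 1.72 and 1.62 against 2.64 and 2.50 CPM. The deprived libraries were the higher ones, but the difference of 0.62 ± 0.21 on the log2 scale narrowly missed the threshold (adjusted p = 0.0510). It passed with RLE factors (adjusted p = 0.0445), DESeq2 (0.0414 adjusted) and limma-voom (0.0371 adjusted), over a range of 0.0371 to 0.335 across all alternatives.

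KLF5 (chromosome 13, 73054976 to 73077542), the proliferation-linked member of epithelial stem and tumour cells, was at 75.3 and 78.3 CPM in controls and at 80.88 and 80.92 CPM in deprived cells. Its libraries did not overlap between groups, but the difference of 0.07 ± 0.07 was within the spread (adjusted p = 0.396). With library size only the sign turned and KLF5 was called lower (-0.26, adjusted p = 0.0230), so its direction rests on the scaling.

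KLF3 (chromosome 4, 38664196 to 38701042), the CtBP-recruiting repressor, was at 65.2 and 65.9 CPM in controls and at 129 and 135 CPM in deprived cells. The deprived level was 2.01-fold that of controls with no overlap (1.01 ± 0.07, adjusted p = 8.62e-05). The locus also holds KLF3-AS1 on the other strand, and since no strand setting is given for the counting, reads of the pair cannot be told apart with certainty. KLF3-AS1 itself had 81 to 157 counts in a library, against 7266 to 14597 for KLF3, and was not called (log2 fold change -0.36 ± 0.33, adjusted p = 0.412). The other CtBP-recruiting members showed no call: KLF12 was at 24.1 and 25.0 CPM in controls and at 24.7 and 25.9 CPM in deprived cells, with overlapping groups (0.05 ± 0.08, adjusted p = 0.669). Under library size scaling KLF12 turned to -0.29 and was called lower (adjusted p = 0.0381). KLF8 had 14 to 23 counts in a library (-0.09 ± 0.60, adjusted p = 0.919), and so small a number limits what could be detected.

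Of the 4 SIN3A-recruiting members among the 10, KLF10, KLF9 and KLF11 rose and KLF13 fell. KLF10 (chromosome 8), a TGF-beta-inducible repressor of growth, was at 54.6 and 57.6 CPM in controls and at 396 and 375 CPM in deprived cells. This 6.87-fold rise was the largest of the 10 genes when all transcripts were summed (2.78 ± 0.08, adjusted p = 1.16e-05; with coding transcripts only KLF4, at 2.81, lay above KLF10, at 2.72) and exceeded the change of 97.98% of all genes tested. KLF11 (chromosome 2, 10042849 to 10054836), its closest relative and also TGF-beta-inducible, was at 10.3 and 9.18 CPM in controls and at 17.04 and 16.4 CPM in deprived cells. It rose 1.72-fold (0.78 ± 0.11, adjusted p = 0.00206), without overlap of the groups.

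KLF9 (chromosome 9, 70384597 to 70414624), a target of glucocorticoid and thyroid hormone receptors, was at 4.03 and 4.63 CPM in controls and at 12.6 and 14.03 CPM in deprived cells. Both deprived libraries lay above both controls, and the rise was 3.07-fold (1.62 ± 0.15, adjusted p = 0.000277). KLF13 (chromosome 15, 31326855 to 31435665), known for driving the chemokine gene CCL5 in T cells, was the most abundant of the 10 in controls at 249 and 234 CPM, and stood at 124 and 127 CPM in deprived cells. It was the single gene of the 10 to fall, by 0.95 on the log2 scale (SE 0.07, adjusted p = 0.000144). CCL5 itself had only 12 to 33 counts in a library and was not called (adjusted p = 0.694).

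Compared per transcript length (TPM, read only within a group because TPM is not TMM-scaled), the order of the 10 genes differed between the groups. In controls KLF13 was first at 79.1 and 65.6 TPM, followed by KLF5 at 48.6 and 44.7 TPM and KLF10 at 36.7 and 34.4 TPM. KLF3 and KLF6 came next with overlapping libraries (31.2 and 28.5 against 31.1 and 27.2 TPM), then KLF7, KLF4 and KLF11, while KLF9 and KLF2 at the bottom also overlapped. In deprived cells KLF10 was first at 189 and 207 TPM and KLF6 the next at 112 and 124 TPM. Below them KLF3, KLF5, KLF7, KLF4 and KLF13 formed a run in which each overlapped its neighbour, from 47.4 down to 27.2 TPM, and KLF11, KLF9 and KLF2 followed without overlap. Of the summed TPM of the 10 genes, KLF13 made up 30.7% and 28.9% in controls and 5.68% and 5.98% in deprived cells. KLF10 and KLF6 went the other way: KLF10 made up 14.2% and 15.2% in controls and 39.3% and 38.4% in deprived cells, and KLF6 12.1% and 11.97% in controls and 23.4% and 22.99% in deprived cells.

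**Figure D2:**
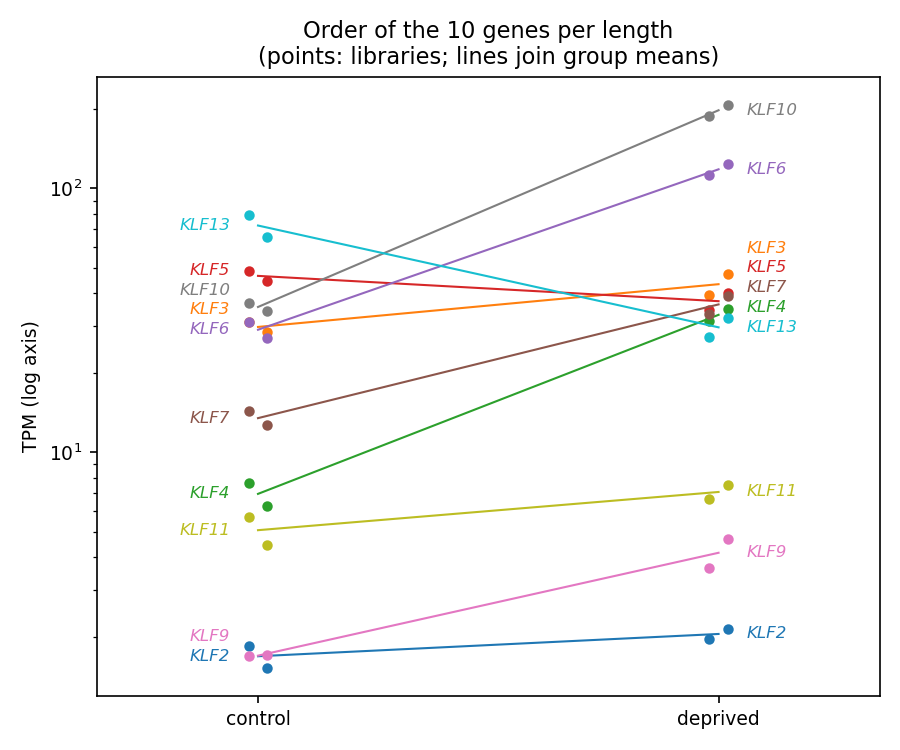
TPM of the 10 genes (log axis) in control and deprived libraries, with lines joining the group means. KLF13 leads in controls and falls to the seventh place, and KLF10 and KLF6 lead in deprived cells.

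The files divide the counts of each gene among its annotated transcripts. The tool that divided them is not named, so these shares are estimates, described without a test. They cannot settle which form carried a change. For KLF10 the transcript KLF10-201 held 76.7% and 80.9% of counts in controls and 91.9% and 94.5% in deprived cells. KLF10-202, whose annotated start lies 1527 bases downstream, went from 12.7 and 11.03 CPM to 32.1 and 20.5 CPM, a ratio of means of 2.21, against 8.12 for KLF10-201. KLF6 showed a like split between its longest form and a shorter one. KLF6-206, with 4 exons, went from 47.7 and 43.5 CPM to 309 and 285 CPM, while KLF6-204, a 2-exon form that ends 4331 bases earlier, went only from 6.56 and 6.44 to 9.26 and 8.62 CPM. The share of KLF6-204 thus went from 11.7% and 11.9% to 2.80% and 2.74%.

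KLF4 was the single gene of the 10 with a large share on transcripts annotated as retaining an intron. KLF4-204 held 16.9% and 37.6% of KLF4 counts in controls and 15.5% and 21.03% in deprived cells, so the groups overlapped, and KLF4-205 held 4.58% to 12.6%. Protein-coding forms took 70.5% and 57.8% of KLF4 counts in controls and 78.2% and 71.95% in deprived cells. Summing coding transcripts alone gave a log2 fold change of 2.81 for KLF4. In each of the other 9 genes coding transcripts held at least 98.98% of counts in every library. The main transcripts of the 10 genes shared no run of 50 bases with a transcript of another gene, except KLF7, which shared 16 of its 8313 such runs with the pseudogene KLF7P1; KLF7P1 had 3 counts in control replicate 1 and 0 elsewhere.

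**Figure D3:**
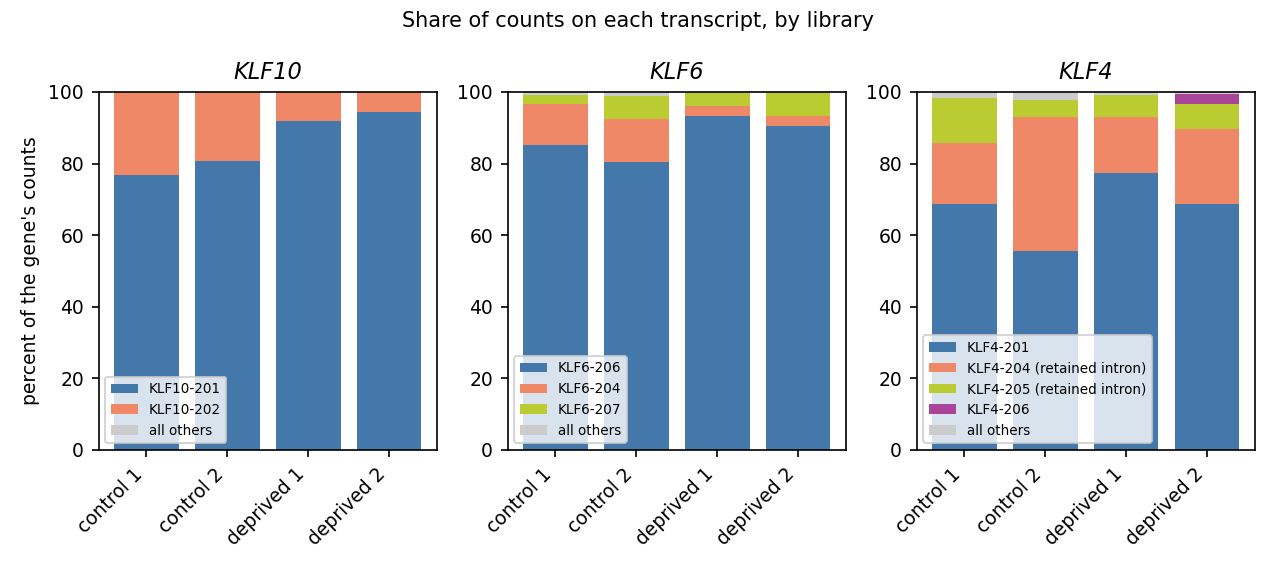
Percent of the counts of KLF10, KLF6 and KLF4 on each annotated transcript, by library. KLF10-202 and KLF6-204 take a smaller share in both deprived libraries than in both controls, whereas the shares of KLF4-204 overlap between the groups.

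Outside the 10, 5 of the 8 other family genes had enough counts to be tested, and 2 were called higher and 1 lower (median 0.05). Over all genes the shares called higher and lower were 25.2% and 24.4%, and over protein-coding genes 34.3% and 29.8%. KLF15, a factor of fasting and glucocorticoid responses in liver and muscle, had 10 and 0 counts in controls and 324 and 312 in deprived cells, or 0.0875 and 0 against 3.10 and 2.88 CPM. It was called higher (adjusted p = 0.00175), but its fitted log2 fold change of 6.04 ± 0.85 rests on a control level set by 10 counts in control replicate 1 alone. KLF16 was at 18.2 and 20.0 CPM in controls and at 22.4 and 24.8 CPM in deprived cells (0.31 ± 0.10, adjusted p = 0.0453), and the call did not hold under library size scaling (-0.026, adjusted p = 0.865) or without control replicate 1 (adjusted p = 0.248), control replicate 2 (adjusted p = 0.0962) or deprived replicate 2 (adjusted p = 0.141). KLF17 had 25 to 27 counts in controls and 5 to 7 in deprived cells (adjusted p = 0.0389), a call lost with DESeq2 (adjusted p = 0.106) and on leaving out any one of the libraries (adjusted p from 0.0774 to 0.220).

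The SP factors, which share the zinc fingers of the family and bind the same GC boxes, included 5 genes called higher and 1 lower of 7 tested (median 0.42), but 3 higher with library size only. With TMM, 25.2% of all genes were called higher and 24.4% lower (34.3% and 29.8% of protein-coding genes). SP4, a close relative of SP1, was at 21.6 and 22.1 CPM in controls and at 67.6 and 68.4 CPM in deprived cells (1.64 ± 0.07, adjusted p = 2.31e-05). SP2 (1.61 ± 0.17) and SP6 (1.94 ± 0.18), the latter known from epithelia and teeth, were also higher. SP9, a developmental factor, was at 16.1 and 14.3 CPM in controls and at 4.84 and 4.26 CPM in deprived cells (-1.74 ± 0.14, adjusted p = 0.000186).

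**Figure D4:**
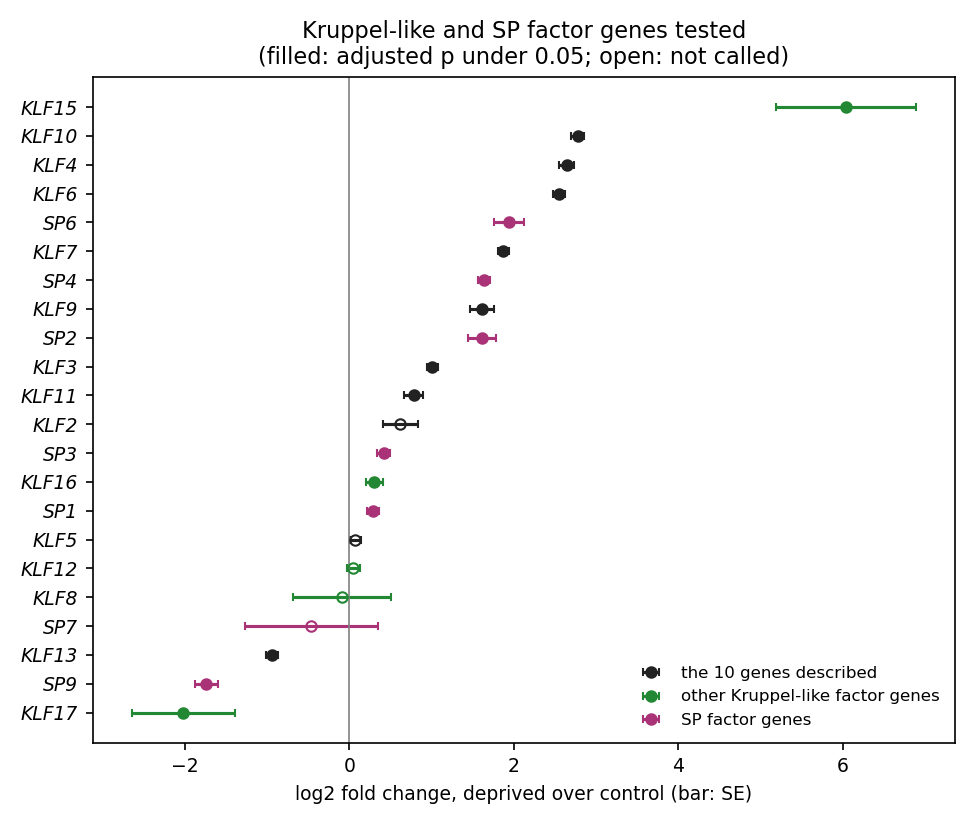
Log2 fold change (deprived over control) with SE for every Kruppel-like and SP factor gene tested; filled points had an adjusted p under 0.05. The 7 higher genes among the 10 run from KLF11 at 0.78 to KLF10 at 2.78, and KLF13, SP9 and KLF17 lie on the lower side.

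Genes of the partners went both ways, in a test that called 25.2% of all genes higher and 24.4% lower. Of protein-coding genes 34.3% were called higher and 29.8% lower. Of 5 coactivators, 3 were called higher and 1 lower (median 0.68). The paralogous acetyltransferase genes EP300 and CREBBP rose from 42.04 and 35.1 to 108 and 113 CPM (1.52 ± 0.10) and from 32.4 and 30.99 to 81.9 and 91.4 CPM (1.45 ± 0.08), and KAT2B rose by 0.68 ± 0.07. KAT2A, the paralog of KAT2B, fell from 74.4 and 68.2 to 16.9 and 17.9 CPM (-2.04 ± 0.08, adjusted p = 2.09e-05). Of 11 corepressors, 3 were called higher and 1 lower (median 0.22), against 1 higher and 3 lower with library size only. CTBP2, which KLF3 binds, rose from 57.45 and 56.4 to 83.1 and 86.6 CPM (0.58 ± 0.07). Under library size scaling its change was 0.24 (adjusted p = 0.0506). The other CtBP gene, CTBP1, was more abundant, at 146.5 and 148.2 CPM in controls and at 142.5 and 133.6 CPM in deprived cells. CTBP1 was not called (-0.09 ± 0.07, adjusted p = 0.313). SIN3A, at 90.9 and 86.4 CPM in controls and at 77.6 and 79.9 CPM in deprived cells, was not called (adjusted p = 0.0862). HDAC3 (0.33 ± 0.09) and NCOR1 (-0.29 ± 0.07) lost their calls in several alternatives, HDAC3 without control replicate 1 (adjusted p = 0.132) or deprived replicate 1 (adjusted p = 0.0681) and NCOR1 without control replicate 1 (adjusted p = 0.0641) or deprived replicate 2 (adjusted p = 0.0619).

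Of 16 signalling genes known to act upstream of family members, 13 were called higher and 2 lower (median 0.67). Over all genes 25.2% were called higher, and over protein-coding genes 34.3%. With library size only, 10 of the 16 were called higher (median 0.34). MEF2D, one of the MEF2 factors that act on the KLF2 and KLF4 genes, went from 13.2 and 11.7 to 47.95 and 57.6 CPM (2.08 ± 0.12). SRF, the serum response factor, went from 17.7 and 16.6 to 50.2 and 48.6 CPM (1.53 ± 0.08). SMAD7, the feedback inhibitor of the TGF-beta pathway that KLF10 and KLF11 are known to repress, went from 17.6 and 17.8 to 91.75 and 85.7 CPM (2.33 ± 0.08). The thyroid hormone receptor gene THRA fell from 56.5 and 57.7 to 15.7 and 16.2 CPM (-1.84 ± 0.07, adjusted p = 1.99e-05). The other thyroid hormone receptor gene, THRB (0.64 ± 0.09), and the glucocorticoid receptor gene NR3C1 (1.15 ± 0.08) were called higher. MAPK7 (-0.745 ± 0.11) was called lower beside THRA. Of 13 ubiquitin ligases and proteases that act on family proteins, 10 were called higher and 2 lower (median 0.68), but 7 higher with library size only (median 0.35). FBXW7, a ligase for KLF2 and KLF5, rose from 20.1 and 20.8 to 55.7 and 55.5 CPM (1.44 ± 0.07), while WWP1, another ligase for KLF2 and KLF5, fell from 68.6 and 71.99 to 38.7 and 41.05 CPM (-0.82 ± 0.07). SMURF1 (1.21 ± 0.08) and FBXO22 (1.14 ± 0.09), the latter reported to act on KLF4, rose as well.

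Genes reported as targets of family members were called in both directions: 11 of 24 tested higher and 8 lower, with a median of -0.10 beside -0.06 for all genes. Calls in both directions are not particular to this list. Of all genes 25.2% were called higher and 24.4% lower, and of protein-coding genes 34.3% and 29.8%. Under library size scaling the balance turned to 7 higher and 10 lower. CDKN1A, which encodes the cell cycle inhibitor p21 and which KLF4 and KLF6 activate, went from 151 and 147 to 1832 and 1669 CPM (3.56 ± 0.10). ODC1, the polyamine synthesis enzyme that KLF4 is reported to repress, went from 45.9 and 53.1 to 403 and 378 CPM (2.98 ± 0.10). CDH1, the E-cadherin gene that KLF4 is reported to activate, fell from 42.7 and 37.8 to 6.16 and 4.99 CPM (-2.85 ± 0.14). The sign of the list median depends on the setting. It was 0.096 without control replicate 1, 0.035 without control replicate 2 and 0.34 with a filter of 50 counts in 2 libraries. The list shares MYC, the growth-promoting oncogene, with the immediate early genes, and MYC went from 58.4 and 60.4 to 265 and 218 CPM (2.02 ± 0.11).

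Several Kruppel-like factors are themselves counted among immediate early genes, whose mRNA rises soon after serum or stress without new protein synthesis. Of 15 such genes tested outside the family, 13 were called higher and 2 lower, with a median log2 fold change of 2.85 beside 1.31 for the 10 Kruppel-like factor genes. The shares called higher and lower were 25.2% and 24.4% of all genes, and 34.3% and 29.8% of protein-coding genes. JUN, a subunit of AP-1, went from 8.28 and 7.24 to 430 and 356 CPM (5.66 ± 0.14). FOSL1, its partner, went from 1.16 and 1.39 to 75.1 and 64.6 CPM (5.77 ± 0.14). The stress factor gene ATF3 went from 1.63 and 1.59 to 168 and 148 CPM (6.62 ± 0.11), and the MAP kinase phosphatase gene DUSP1 from 169 and 161 to 2437 and 2186 CPM (3.81 ± 0.11). The deprived libraries of these 4 genes, the ones of the list with the smallest p, lay far above the controls. EGR1 (6.77 ± 0.55), EGR2 (6.02 ± 0.80) and FOSB (4.13 ± 0.32) also rose by more than DUSP1 on the log2 scale, from few control counts. In controls EGR1 had 46 and 9 counts, EGR2 0 and 5, and FOSB 41 and 23. Smaller rises were those of IER2 at 2.49, FOS at 1.61 and IER3 at 1.42. The nuclear receptor genes NR4A1 (-0.65 ± 0.14) and NR4A2 (-2.21 ± 0.21) were the 2 called lower.

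**Figure D5:**
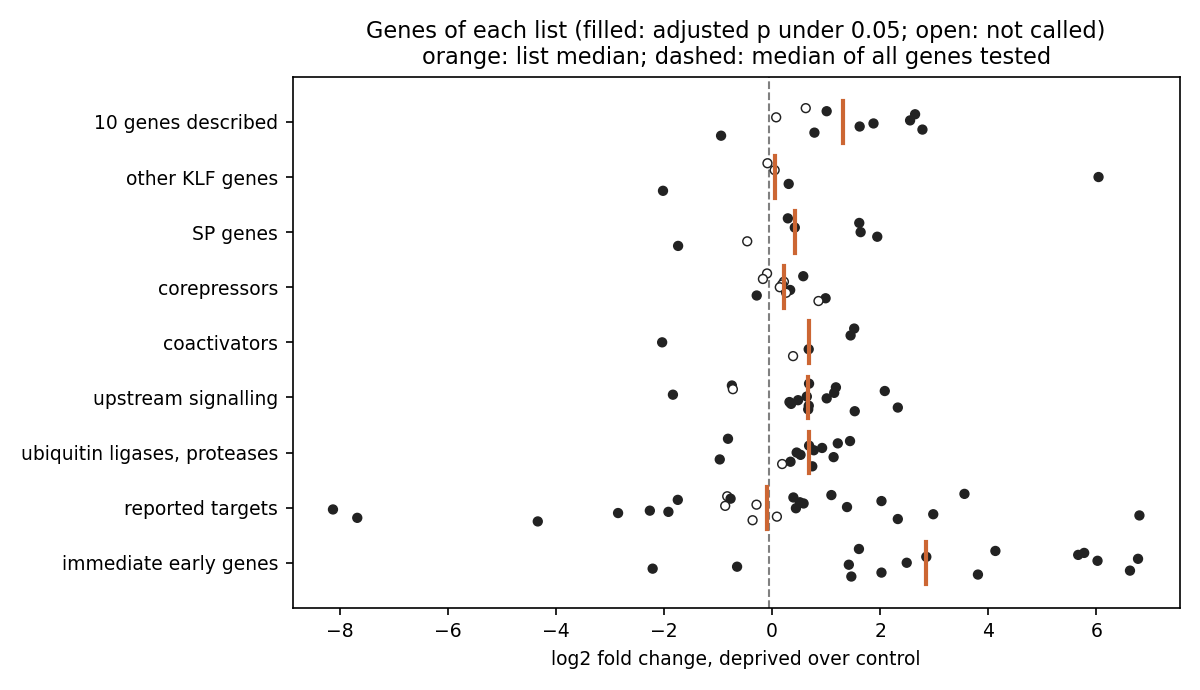
Log2 fold change (deprived over control) of each tested gene in the 10 genes and 8 related lists, with the list median (orange) and the median of all genes (dashed). The 10 genes centre at 1.31, reported targets at -0.10 with genes on both sides, and immediate early genes at 2.85.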

How the data were processed

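The authors deposited, per the file headers, 1 count per Ensembl transcript and library. Build hg38, DESeq2 1.20.0, HISAT2 2.0.5 and featureCounts 1.5.0-p3 stand in the submitters' processing notes without a role. For the annotation release and the division of reads among transcripts, the tool is not given in the sources used here. In 43.7% of 7456 pairs a transcript covering all exons of another had fewer counts, so the deposited values were treated as estimated counts, already whole. Of 229420 transcript IDs, 205306 matched GENCODE release 29 (98.0% to 98.2% of counts) and were summed to genes.

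Genes passing filterByExpr were scaled with TMM (factors 0.862 to 1.15) and tested with edgeR 4.0.16 (glmQLFit, glmQLFTest, two-sided, Benjamini-Hochberg) in R 4.3.3. The procedure was also run on simulated counts with few changed genes and a common dispersion, which does not test the choice of scaling. SEs are the absolute log2 fold change over the root of F. TPM used GENCODE exon lengths. Alternatives were library size only, scaling by upper quartile or by RLE, a filter of 50 counts in 2 libraries or none, DESeq2 1.42.0, limma-voom (limma 3.58.1), a replicate block, coding transcripts only and each library left out. Replicates differed beyond sampling noise (chi-square per degree of freedom 31 and 43.6).

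The 10 genes, the 8 related lists and the motifs were chosen with earlier results of these data known. Named are the 10, in each list the 4 lowest p-values, and MYC, CDKN1A, KLF8, KLF12, KLF15 and KLF16, except 1 corepressor that is not reported here; CCL5, SIN3A, FOS, IER2, IER3, NR4A1, NR4A2, the overlapping genes and the markers were named after their values were seen. The deposited table of long non-coding RNAs names no Kruppel-like factor gene and was not used.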

Additional observations from a re-analysis of the deposited data

How the results depend on the processing

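The calls of KLF3, KLF4, KLF6, KLF7, KLF9, KLF10, KLF11 and KLF13 were the same in all 13 alternatives, with KLF10 from 2.44 to 2.84, KLF11 from 0.44 to 0.85 and KLF13 from -1.28 to -0.91 on the log2 scale. KLF2 had counts of 178 to 276 per library, which limits its precision.

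Where a count moved by over 1.5 times or a sign turned, the cause was not tested. With library size only, 2 of the 10 genes were called lower (KLF13 and KLF5) instead of 1, other family genes had 1 higher and 2 lower, SP genes 3 higher, corepressors 1 higher and 3 lower, and targets 7 higher; KLF5 turned to -0.26, KLF12 to -0.29, KLF16 to -0.026, HDAC3 to -0.0039, and the medians of other family genes to -0.29 and of corepressors to -0.12. With upper-quartile factors, KLF5 turned to -0.033, KLF12 to -0.060 and the median of other family genes to -0.060, with 1 called higher, and 3 corepressors were called lower. Other family genes had 1 higher and 0 lower without a filter, with the 50-count filter and with the replicate block, 0 lower with DESeq2, and 1 higher with coding transcripts only. DESeq2 called 5 corepressors higher. The 50-count filter and coding transcripts each called 2 corepressors lower and turned KLF12 to -0.0029 and -0.0072; the former turned the target median to 0.34, and the latter left 1 immediate early gene lower and KLF8 at 0.0029. Leaving out 1 library at a time, other family genes had 1 to 2 higher and 0 lower, corepressors 2 to 4 higher and 0 to 1 lower, and immediate early genes 1 to 2 lower. KLF8 ran from -0.39 to 0.27 (0.098 without deprived replicate 1) and the target median from -0.099 to 0.096.

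Libraries with the same replicate number showed no shared deviation (correlation of the replicate differences between groups -0.0235). This cannot show whether they were cultured or prepared together. With the replicate block 5529 genes were called higher and 5079 lower, the calls of the 10 genes stayed as they were, KLF2 had an adjusted p of 0.0945, and 0 corepressors were called lower.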

Other observations

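AU-rich elements in the 3′ untranslated region are known to shorten the life of many immediate early mRNAs. The core TATTTAT occurred after the stop codon in the main transcripts of KLF2, KLF5, KLF6, KLF7 and KLF11, which is 5 of the 10 genes, once in each, against 31.1% of 15240 protein-coding genes tested. This share is not matched for length: the untranslated regions of KLF5, KLF6, KLF7 and KLF11 had 1656, 3543, 7076 and 2329 bases, and that of KLF2 843 bases, against a median of 1023. Per kilobase KLF6 (0.282) and KLF7 (0.141) lay below the mean of 0.325 over protein-coding genes, and KLF2 (1.19), KLF5 (0.604) and KLF11 (0.429) above it. Of these 5, KLF6, KLF7 and KLF11 were called higher and KLF2 and KLF5 were not called. KLF4 and KLF10, both among the 3 largest rises of the 10, had none in untranslated regions of 899 and 1353 bases. KLF3, KLF9 and KLF13 also had none, in 3779, 3179 and 5600 bases. The longer element TTATTTATT was found in KLF5 alone of the 10 genes and in 8.07% of protein-coding genes.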
